A study of Mus musculus with 6 samples.

Results

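The antioxidant and glutathione genes described here are 38 genes that remove superoxide and peroxides or keep protein thiols reduced, together with the regulators of the transcription factor NRF2. They were chosen by symbol from the deposited table of 55414 genes, and all 38 were found, each on a single row. Expression was measured by RNA sequencing of SMART-seq libraries, which copy polyadenylated RNA, in natural killer (NK) cells, lymphocytes of the innate immune system that kill infected or malignant cells, taken from wild-type mouse liver. There were 3 libraries from mice that received the diabetes drug metformin at 200 mg per kg for 3 days and 3 from mice that received phosphate-buffered saline (PBS), all taken on day 3. The sources used here do not give the strain or age, how the NK cells were sorted or whether each library is its own animal. The p-values therefore rest on library-to-library spread, part of which may be technical.

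Superoxide that leaks from the respiratory chain is turned into hydrogen peroxide by superoxide dismutases, and the peroxide is removed by catalase, glutathione peroxidases and peroxiredoxins. The last 2 families draw their electrons from glutathione and thioredoxin, which are kept reduced by their own reductases with NADPH. NRF2 (Nfe2l2) is held down by KEAP1 and, when freed by oxidants, binds antioxidant response elements and turns on many of these enzymes. Metformin is known to inhibit respiratory complex I, a site of superoxide formation.

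The libraries held 22152167 to 24266803 estimated reads with metformin and 24838302 to 30161214 with PBS. All 10 NK cell markers examined were expressed, at means of 269.8 to 4765 CPM (reads scaled to a common library total, here TMM-adjusted). Library metformin 3 stood apart: its mean correlation with the others was 0.956, against 0.964 to 0.968 for the other 5, and its gene levels, taken relative to the 6-library mean, were the most negatively related to gene length (Spearman -0.42 across genes, against -0.11 to 0.33 in the other 5). Cell type markers also differed between the groups. The sum of 8 markers of liver type 1 innate lymphoid cells was 1364 to 1516 CPM with metformin and 903.3 to 1004 CPM with PBS, that of 8 conventional NK markers 2325 to 2908 CPM with metformin and 3865 to 3904 CPM with PBS, and that of 13 T cell markers 1399 to 1672 CPM with metformin and 862.2 to 1007 CPM with PBS. None of the genes in these 3 lists was at 0 in every library. The part of these markers in the values below was not tested, and in bulk samples fewer cells of a type and less RNA per cell cannot be told apart.

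No antioxidant or glutathione gene passed the test between metformin and PBS. In edgeR's quasi-likelihood test with Benjamini-Hochberg adjustment over all 15527 genes tested, 0 of the 38 genes had an adjusted p under 0.05, where the same rule called 0.0% of all genes. The smallest adjusted p among the 38 was 0.427, for Sod1. DESeq2, which gave Nqo1 no adjusted p, called 0 (1.93% of all genes) and limma-voom 0 (0.0% of all genes). At an unadjusted p under 0.05 edgeR gave 3 of 38 genes, Sod1 and Glrx higher with metformin and Gclc lower, which is 7.89% against 10.4% of all genes (5.29% higher and 5.08% lower). DESeq2 and limma-voom also gave 3 each at that p, against 11.3% and 10.8% of all genes. With 1 library left out the 38 genes gave 3 without metformin 1, 3 without metformin 2, 5 without metformin 3, 1 without PBS 1, 2 without PBS 2 and 0 without PBS 3, against 9.05%, 11.7%, 11.4%, 7.43%, 6.48% and 8.19% of all genes. A replicate block gave 1, against 9.89% of all genes. These shares are near or below those of all genes.

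The fitted differences were small and went both ways. Log2 fold changes ran from -0.44 for Nqo1 to 0.44 for Sod1, so no fitted difference was over 1.36-fold. Of the 38, 24 had a positive and 14 a negative log2 fold change (36.8% negative, against 49.1% of all genes), with a median of 0.039 against 0.0053 over all genes tested. The median was -0.0088 with the gene length trend removed, -0.0044 without metformin 3 and -0.059 on the deposited TPM scale (transcript abundance per length and library total, log2 of the value plus 1), where the median over all genes was itself -0.091. With the trend removed 20 of the 38 were negative (47.1% of all genes), and on TPM 26 of 37 (64.4% of all genes). The 95% interval of the difference, from the standard error (SE) of the fit and not adjusted for the number of genes, lay within 1.5-fold in both directions for 30 of the 38 genes (78.9%, against 40.7% of all genes tested). It lay within 2-fold for 37 (97.4%, against 64.5% of all genes tested). The 8 that reached past 1.5-fold were Sod1, Gclm, Mgst2, Mgst3, Prdx4, Nqo1, Hmox1 and Nfe2l1. Only for Nqo1, of these 38, did the interval reach past 2-fold, from 0.308 to 1.76. The part of expression level in the difference from all genes was not tested.

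**Figure D1:**
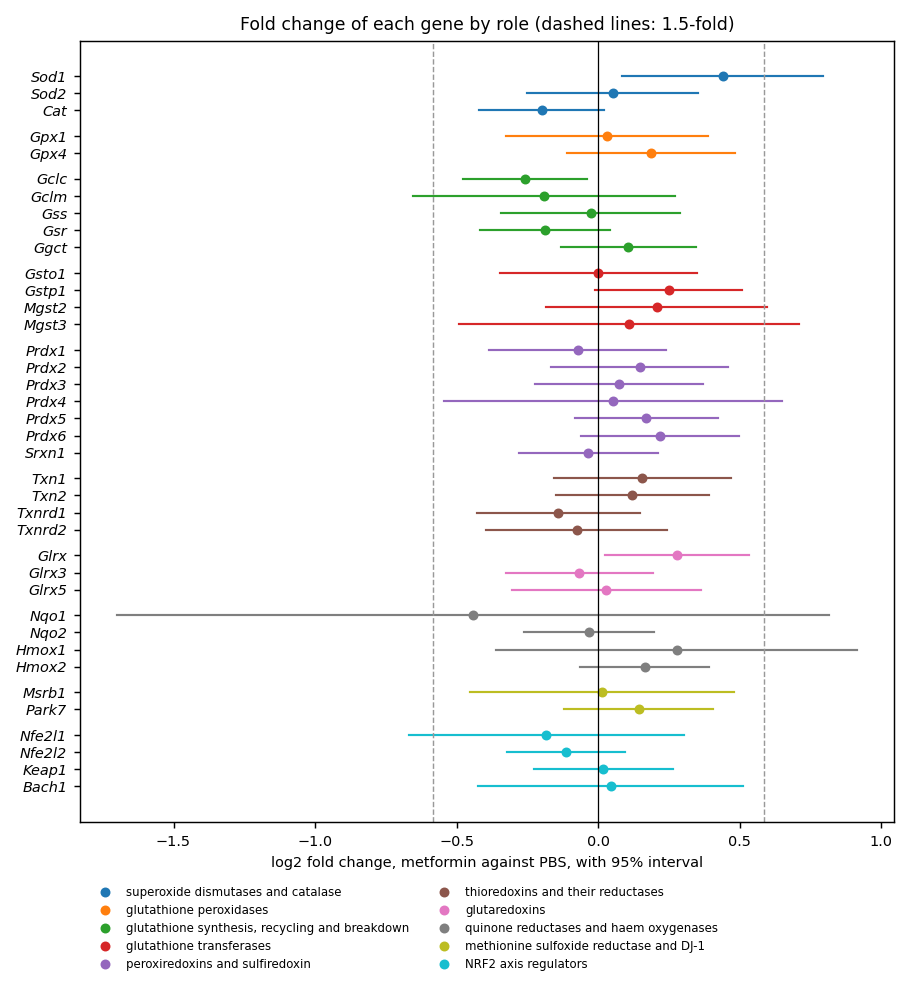
Log2 fold change of each of the 38 genes, metformin against PBS (x axis), with its 95% interval from edgeR's fit of 3 metformin and 3 PBS libraries. Points lie between -0.44 and 0.44, and for 30 genes the interval stays inside the dashed lines at 1.5-fold.

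In 6 of the 38 genes the metformin and PBS libraries did not overlap in CPM (15.8%, against 19.1% of all genes tested). Sod1, Glrx, Gstp1 and Prdx6 were higher in all 3 metformin libraries (4 genes, against 9.49% of all genes in that direction), and Gclc and Cat were lower (2 genes, against 9.63%). Leaving out 1 library can only keep or raise this count. It was 14 without metformin 2, 12 without metformin 3, 11 without PBS 3 and 10 without PBS 1. All genes gave 32.7%, 29.7%, 29.5% and 29.6% there, in the same order. The count of members was 7 without metformin 1 and 8 without PBS 2, where all genes gave 28.3% and 26.8%. On the TPM scale, 5 of 38 did not overlap (20.1% of all genes), with 0 higher (4.82% of all genes) and 5 lower with metformin (15.2% of all genes): Cat, Gclc, Txnrd1, Txnrd2 and Nfe2l2. Cat and Gclc were thus separate on both scales.

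**Figure D2:**
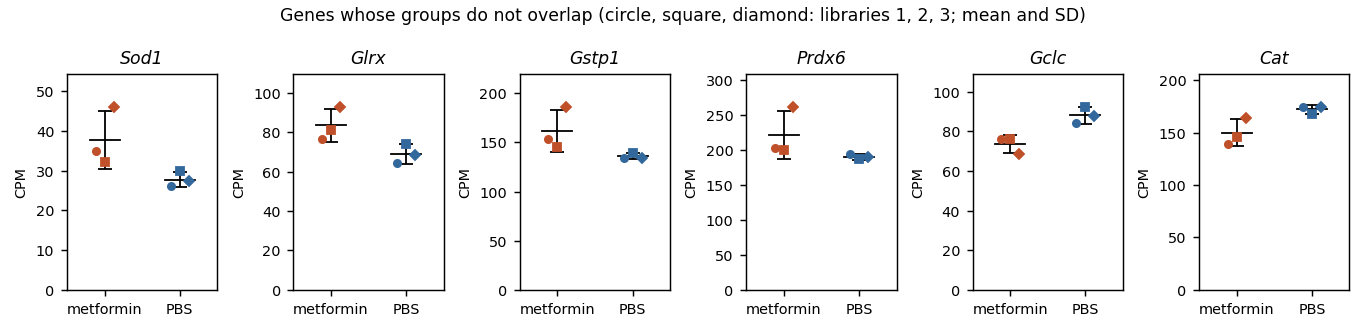
CPM of the 6 genes whose groups did not overlap, with 1 point per library, the mean (long bar) and SD (short bars), metformin on the left and PBS on the right. Sod1, Glrx, Gstp1 and Prdx6 lie higher with metformin, with metformin 3 the highest of each, while Gclc and Cat lie lower.

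Levels of the 38 genes, compared per length as deposited TPM, spanned a wide range in these NK cells. Gpx1 and Gpx4, the glutathione peroxidases that reduce hydrogen peroxide and membrane lipid peroxides, had the highest means over the 6 libraries, 497 and 439 TPM. Prdx1, a cytosolic peroxiredoxin, followed with 391 TPM, Gstp1, a glutathione transferase, with 387 TPM and Prdx6, a peroxiredoxin that also acts on phospholipids, with 254 TPM. The first 4 overlap with their neighbours in this order, at 428 to 577 TPM for Gpx1, 408 to 497 TPM for Gpx4, 348 to 450 TPM for Prdx1 and 360 to 437 TPM for Gstp1, while Prdx6 lay below them in every library, at 239 to 289 TPM. At the other end stood Hmox1 with 3.25 TPM, Bach1 with 3.07 TPM and Nqo1 with 0.850 TPM. The 38 genes summed to 4010, 4049 and 4532 TPM in metformin libraries 1, 2 and 3 and to 4372, 4431 and 4315 TPM in PBS libraries 1, 2 and 3, and the groups overlapped.

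**Figure D3:**
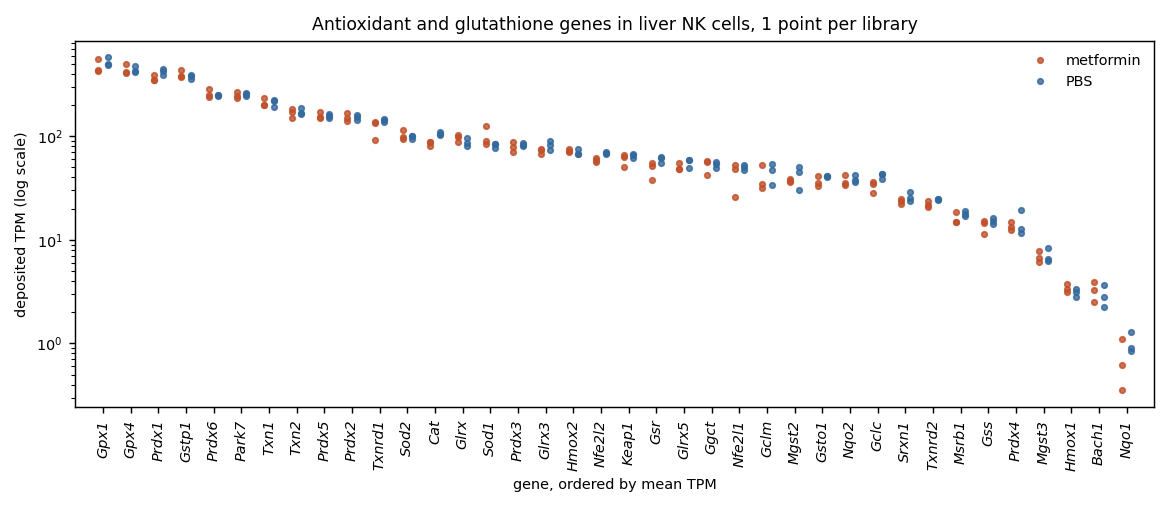
Deposited TPM (y axis, log scale) of each gene in the 3 metformin and 3 PBS libraries, ordered by mean level from Gpx1 (497 TPM) to Nqo1 (0.850 TPM). In 5 of the 38 genes (Cat, Gclc, Txnrd1, Txnrd2 and Nfe2l2) the metformin points all lie below the PBS points, and in the others the groups overlap.

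Sod1, the copper and zinc superoxide dismutase of the cytosol (ENSMUSG00000022982.11, chromosome 16, 90017642 to 90023217 as the table lists it), had 34.9, 32.1 and 46.0 CPM in metformin libraries 1, 2 and 3, against 26.1, 29.8 and 27.3 CPM in PBS libraries 1, 2 and 3. Every metformin library was above every PBS library, and metformin 3 was well above the other two. The log2 fold change was 0.44 (SE 0.15; edgeR adjusted p = 0.427, unadjusted p = 0.021), and it was 0.26 without metformin 3, 0.26 on TPM and 0.54 with the length trend removed. On TPM the groups overlapped, at 83.5 to 124 with metformin and 77.2 to 83.6 with PBS. Its deposited TPM was 5.43 times what its reads per listed kilobase give, relative to the median gene, so the listed length of 3970 bases is not the one behind its TPM. Sod2, the manganese enzyme of the mitochondrial matrix, averaged 73.9 ± 10.6 CPM with metformin and 71.3 ± 6.62 CPM with PBS (SD, n = 3 each). Its log2 fold change was 0.05 (SE 0.13), and -0.07 without metformin 3.

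Cat, the peroxisomal enzyme catalase that splits hydrogen peroxide into water and oxygen (ENSMUSG00000027187.11, chromosome 2, 103284194 to 103315505), had 139, 146 and 164 CPM in metformin libraries 1, 2 and 3, against 175, 168 and 174 CPM in PBS libraries 1, 2 and 3. All 3 metformin libraries were below all 3 PBS libraries. The log2 fold change was -0.20 (SE 0.10; edgeR adjusted p = 0.510), and -0.28 without metformin 3, -0.20 with the length trend removed and -0.31 on TPM. Hepatocytes and red cells are rich in catalase: 25 hepatocyte markers summed to 355.0, 326.8 and 849.1 CPM in metformin libraries 1, 2 and 3 and 302.5 to 487.9 CPM with PBS, and 9 red cell markers to 62.3 to 167 CPM with metformin and 63.2 to 146 CPM with PBS. No gene of either list was at 0 in every library. Both sums overlapped between the groups, and their part in the Cat values was not tested.

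The glutathione peroxidases did not separate the groups. Gpx1 had 214, 202 and 289 CPM in metformin libraries 1, 2 and 3, against 259, 222 and 209 CPM in PBS libraries 1, 2 and 3, with a log2 fold change that fitted at 0.03 (SE 0.15; edgeR adjusted p = 0.953). Its sign turned with the length trend removed (-0.15), on TPM (-0.145) and without metformin 3 (-0.15). Gpx4, whose loss leads to the lipid peroxide death called ferroptosis, had 187, 174 and 238 CPM in metformin libraries 1, 2 and 3 and 170, 171 and 184 CPM in PBS libraries 1, 2 and 3, with a log2 fold change of 0.19 (SE 0.13, with an edgeR adjusted p = 0.633). In both genes metformin 3 was the highest library, and without it Gpx4 stood at 0.04. The transcribed processed pseudogene Gpx4-ps2 is counted apart, at 252 to 455 reads per library, and the sources used here do not say how reads shared with Gpx4 were assigned.

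Glutathione is made in 2 steps, of which the first, joining glutamate and cysteine, limits the rate. Its catalytic subunit Gclc (ENSMUSG00000032350.10, chromosome 9, 77661817 to 77701767) had 76.1, 76.3 and 68.5 CPM in metformin libraries 1, 2 and 3, against 83.9, 92.3 and 87.9 CPM in PBS libraries 1, 2 and 3. Every metformin library was below every PBS library, in CPM and in TPM. The log2 fold change was -0.26 (SE 0.10; edgeR adjusted p = 0.443, unadjusted p = 0.027), with -0.34 to -0.19 over the other settings and -0.22 without metformin 3. The regulatory subunit Gclm, which raises the activity of Gclc, had 24.0, 25.2 and 36.6 CPM in metformin libraries 1, 2 and 3, against 34.2, 26.2 and 37.6 CPM in PBS libraries 1, 2 and 3. The Gclm groups overlapped, with a log2 fold change of -0.19 (SE 0.20, with an edgeR adjusted p = 0.748) that was -0.42 without metformin 3 and -0.0063 with the length trend removed.

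The other glutathione enzymes of synthesis and recycling overlapped between the groups. Gsr, which reduces oxidised glutathione, averaged 73.5 ± 4.49 CPM with metformin and 83.7 ± 5.65 CPM with PBS (SD, n = 3 each), a log2 fold change of -0.19 (SE 0.10, with an edgeR adjusted p = 0.540), negative under every setting tried (-0.32 to -0.15). Gss, which carries out the second step of synthesis, averaged 17.7 and 18.0 CPM with metformin and PBS. Ggct, which breaks down gamma-glutamyl peptides, averaged 37.8 CPM with metformin and 35.1 CPM with PBS. Of these 5 genes, Gclc, Gclm, Gsr and Gss had negative log2 fold changes and Ggct a positive one, and none passed the test. The sign turned for Gss with the length trend removed (0.03) and for Ggct on TPM (-0.05).

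Glutathione transferases attach glutathione to reactive molecules, and Gstp1 was by far the most abundant of the 4 among the 38 genes. Gstp1 (ENSMUSG00000060803.7, chromosome 19, 4085407 to 4087985) had 153, 146 and 186 CPM in metformin libraries 1, 2 and 3, against 134, 140 and 134 CPM in PBS libraries 1, 2 and 3. All 3 metformin libraries were higher, yet the log2 fold change of 0.25 (SE 0.11, with an edgeR adjusted p = 0.487) was 0.0036 with the length trend removed, 0.06 on TPM and 0.13 without metformin 3. Gstp1 is the shortest of the 38 genes at 821 listed bases. Gstp2 is a near copy next to it, with 81.6 to 176 reads per library against 3398 to 4249 for Gstp1, so the split of reads between them is uncertain. Gsto1, Mgst2 and Mgst3, a cytosolic and 2 microsomal enzymes of the same broad function, had log2 fold changes of 0.0012, 0.21 and 0.11, and each turned negative on TPM (-0.15, -0.14 and -0.04).

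Peroxiredoxins reduce peroxides through a reactive cysteine, and the 6 mammalian forms were all expressed. Prdx6 (ENSMUSG00000026701.16, chromosome 1, 161067682 to 161078789) had 202, 200 and 261 CPM in metformin libraries 1, 2 and 3, against 194, 186 and 190 CPM in PBS libraries 1, 2 and 3. The metformin libraries were all higher, 2 of them narrowly, and the log2 fold change of 0.22 (SE 0.12, with an edgeR adjusted p = 0.557) was 0.07 without metformin 3. Prdx1, the most abundant peroxiredoxin, had 231, 227 and 302 CPM in metformin libraries 1, 2 and 3, against 275, 284 and 239 CPM in PBS libraries 1, 2 and 3, a log2 fold change of -0.07 (SE 0.14, with an edgeR adjusted p = 0.869), and -0.22 without metformin 3. Prdx1 thus had metformin libraries both above and below all of its PBS libraries. Prdx2 of the cytosol, Prdx3 of mitochondria, Prdx4 of the endoplasmic reticulum and Prdx5 of several compartments had log2 fold changes of 0.15, 0.07, 0.05 and 0.17, and on TPM the first 3 were at -0.0034, -0.06 and -0.06. Srxn1, which repairs overoxidised peroxiredoxins, had 44.4, 45.9 and 44.2 CPM in metformin libraries 1, 2 and 3 and 41.9, 45.2 and 50.7 CPM in PBS libraries 1, 2 and 3 (log2 fold change -0.03, SE 0.11, and 0.04 without PBS 3).

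In the thioredoxin system, which supplies the peroxiredoxins, the reductase Txnrd1 of the cytosol had 276, 278 and 208 CPM in metformin libraries 1, 2 and 3, against 277, 283 and 280 CPM in PBS libraries 1, 2 and 3. Only metformin 3 was clearly lower, and the log2 fold change of -0.14 (SE 0.13, with an edgeR adjusted p = 0.705) was -0.02 without it. On TPM all 3 metformin libraries lay below all 3 PBS libraries, by as little as 136.6 against 136.7. The mitochondrial reductase Txnrd2 averaged 21.0 ± 1.32 CPM with metformin and 22.2 ± 2.67 CPM with PBS (SD, n = 3 each). The thioredoxins themselves, Txn1 of the cytosol and Txn2 of mitochondria, averaged 116 and 131 CPM with metformin and 104 and 121 CPM with PBS. Their log2 fold changes of 0.16 and 0.12 were both 0.02 without metformin 3.

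Glutaredoxins remove glutathione from protein thiols or carry iron-sulphur clusters. Glrx, the cytosolic thiol enzyme (ENSMUSG00000021591.9, chromosome 13, 75987987 to 75998273), had 76.9, 81.3 and 93.0 CPM in metformin libraries 1, 2 and 3, against 64.3, 74.1 and 68.5 CPM in PBS libraries 1, 2 and 3. The groups did not overlap in CPM, and the log2 fold change was 0.28 (SE 0.11; edgeR adjusted p = 0.462, unadjusted p = 0.035). It was 0.19 without metformin 3, 0.39 with the length trend removed and 0.14 on TPM, where the groups overlapped. The listed length of 4228 bases, which the trend removal uses, is not the one behind its TPM, which was 2.50 times what that length gives. Glrx3 and Glrx5, which serve iron-sulphur cluster handling in the cytosol and mitochondria, overlapped between the groups, with log2 fold changes of -0.07 and 0.03. Msrb1, a selenium-containing methionine sulfoxide reductase, and Park7, which encodes the redox-sensitive protein DJ-1, had log2 fold changes of 0.01 and 0.14, and both were negative with the length trend removed (-0.14 and -0.06).

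NRF2 and its regulators showed no difference that passed the test. Nfe2l2, which encodes NRF2 (ENSMUSG00000015839.7, chromosome 2, 75505857 to 75534985), had 90.5, 95.4 and 102 CPM in metformin libraries 1, 2 and 3, against 105, 105 and 101 CPM in PBS libraries 1, 2 and 3. The groups overlapped only at metformin 3, and the log2 fold change was -0.11 (SE 0.09; edgeR adjusted p = 0.672), negative under every setting tried (-0.22 to -0.08). On TPM they were separate, with 56.6, 61.6 and 59.4 TPM in metformin libraries 1, 2 and 3 and 68.0, 69.8 and 69.3 TPM in PBS libraries 1, 2 and 3. Keap1, the adaptor that directs NRF2 to degradation, had 107, 105 and 86.9 CPM in metformin libraries 1, 2 and 3 and 97.6, 100.1 and 97.6 CPM in PBS libraries 1, 2 and 3, a log2 fold change of 0.02 (SE 0.11) that was -0.13 on TPM.

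The related factors varied with single libraries. Nfe2l1, the NRF2 relative that controls proteasome genes, had 168, 155 and 90.3 CPM in metformin libraries 1, 2 and 3, against 159, 144 and 165 CPM in PBS libraries 1, 2 and 3. Metformin 3 alone was low, and the log2 fold change of -0.18 (SE 0.21, with an edgeR adjusted p = 0.770) was 0.04 without it. Bach1, a repressor that competes with NRF2 for its sites, had 8.97, 8.60 and 8.37 CPM in metformin libraries 1, 2 and 3 and 6.89, 8.46 and 9.79 CPM in PBS libraries 1, 2 and 3, with groups that overlapped.

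Hmox1 and Nqo1, which NRF2 is known to turn on, did not pass the test. Hmox1, the inducible haem oxygenase, had 3.41, 3.00 and 3.99 CPM in metformin libraries 1, 2 and 3, against 3.20, 2.87 and 2.51 CPM in PBS libraries 1, 2 and 3, a log2 fold change of 0.28 (SE 0.28, with an edgeR adjusted p = 0.732) whose 95% interval ran from 0.780-fold to 1.89-fold. Nqo1, a quinone reductase often used to read NRF2 activity, was near the floor of detection, with 8, 25 and 15 estimated reads in metformin libraries 1, 2 and 3 and 33, 20 and 23 in PBS libraries 1, 2 and 3. At that depth the 95% interval of Nqo1, 0.308-fold to 1.76-fold, took in levels 2-fold lower with metformin (log2 fold change -0.44, SE 0.55; edgeR adjusted p = 0.789). Their relatives Nqo2, another quinone reductase, and Hmox2, the constitutive haem oxygenase, averaged 50.3 and 68.4 CPM with metformin and 51.4 and 61.1 CPM with PBS.

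**Figure D4:**
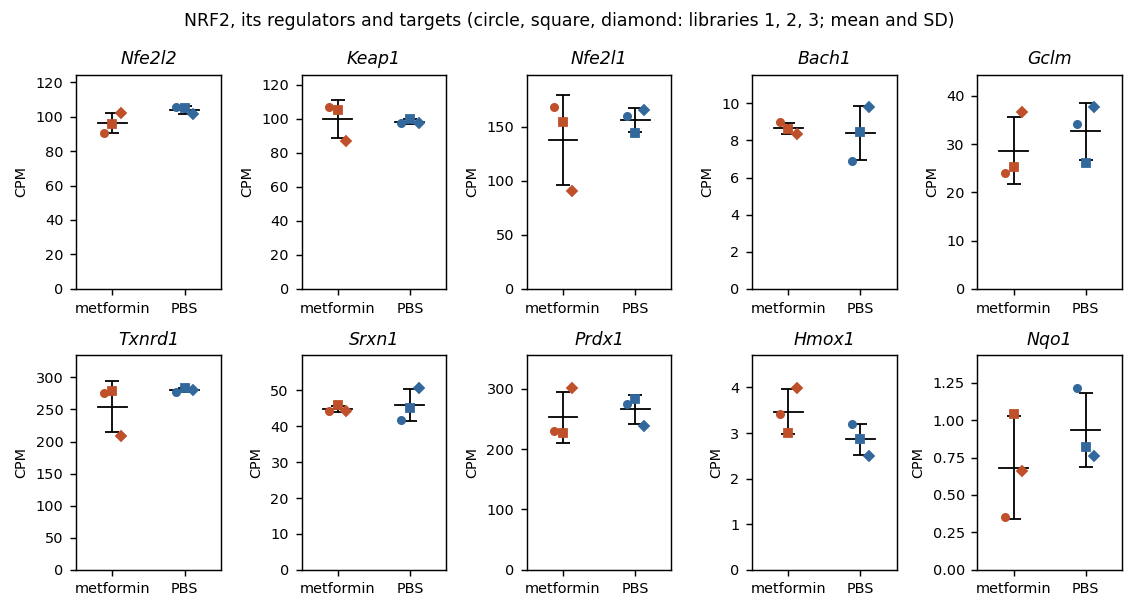
CPM of NRF2 (Nfe2l2), its regulators and some of its targets, with 1 point per library, the mean (long bar) and SD (short bars), metformin on the left and PBS on the right. The groups overlap in all 10 panels, and metformin 3 (diamond) is the low point of Keap1, Nfe2l1 and Txnrd1.

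The antioxidant response element core was looked for in the members' promoters, because it is the sequence through which NRF2 acts. The letters TGACNNNGC were searched on both strands of 300 bases per promoter, 250 before and 50 after the start site, in RefSeq sequence on GRCm38.p6, which is not the coordinate system of the deposited table. Promoters of 34 of the 38 genes were matched; Gclc, Gsr, Prdx6 and Hmox1 were not. The core was found in 7 of the 34 genes (20.6%), against 14.0% of 27025 genes with a promoter, and in 12.4% of all promoter windows. The 6 genes in which it ends before the start site are shown with up to 20 bases on each side, on the gene's own strand, with the core in capitals; TGAC opens the core on the gene's strand in Nfe2l2, and it lies on the opposite strand in the other 5.
Prdx1: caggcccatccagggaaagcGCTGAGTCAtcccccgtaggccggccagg
Txnrd1: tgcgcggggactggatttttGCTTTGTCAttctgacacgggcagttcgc
Gclm: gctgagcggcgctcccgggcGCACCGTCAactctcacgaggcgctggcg
Sod1: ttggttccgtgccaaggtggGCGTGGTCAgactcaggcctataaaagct
Ggct: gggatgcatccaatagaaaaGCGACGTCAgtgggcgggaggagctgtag
Nfe2l2: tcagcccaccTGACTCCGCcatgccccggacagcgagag

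These stretches lie at chr4:116685446-116685494 (Prdx1, plus strand), chr10:82859094-82859142 (Txnrd1, plus strand), chr3:122245403-122245451 (Gclm, plus strand), chr16:90220686-90220734 (Sod1, plus strand), chr6:54993013-54993061 (Ggct, minus strand) and chr2:75704875-75704913 (Nfe2l2, minus strand). The core in Srxn1, the seventh gene, does not end before the start site. The 7 genes that hold the core had log2 fold changes of -0.07 (Prdx1), -0.14 (Txnrd1), -0.19 (Gclm), 0.44 (Sod1), 0.11 (Ggct), -0.11 (Nfe2l2) and -0.03 (Srxn1), so they lay on both sides of 0. A match describes letters in these windows and does not show a site in use.

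Gene length moved with many of these values. The listed length is itself in doubt for 6 members, Sod1, Sod2, Gclm, Ggct, Glrx and Mgst2, whose TPM was 2.50 to 5.43 times what it gives relative to the median gene, and the length classes, correlations and trend removal below all use it. Metformin 3 was the highest library in 20 of the 38 genes (52.6%), against 29.3% of all genes tested, and metformin 1 and 2 in 2 each. Its sum of 14 macrophage and monocyte markers was 958.7 CPM, against 489.6 to 714.8 CPM in the other libraries. Clec4f and Vsig4 of these averaged under 1 CPM. Its sum of 25 hepatocyte markers was 849.1 CPM, against 302.5 to 487.9 CPM. Metformin 3 was not the highest in the B cell, neutrophil, conventional NK or endothelial and stellate sums. The part of these markers was not tested. Relative to the mean of metformin 1 and 2, metformin 3 was higher in 13 of 15 members with a listed length under 2000 bases (median log2 ratio 0.35), in 9 of 13 of 2000 to under 3500 bases (0.15) and in 5 of 10 of 3500 bases or more (-0.0099). Across the 38 genes, which share their libraries, the log2 fold change against PBS correlated with listed length at a Spearman rho of -0.29, and at 0.028 without metformin 3. Over all genes tested it was -0.40, and -0.21 without metformin 3.

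Removal of each library's trend on length lowered the median of the short members and raised that of the long ones. The median log2 fold change of the 15 shortest members was 0.14, and -0.04 with the trend removed. The median of the 10 longest by listed length, of which 5 (Sod1, Sod2, Gclm, Ggct and Glrx) are in doubt, was 0.03, and 0.14 with the trend removed, and rho over the 38 became 0.42 (-0.034 over all genes). With the trend removed the groups did not overlap in 9 of 38 genes (17.9% of all genes): Sod1, Ggct, Prdx6 and Glrx on the higher side with metformin, and Cat, Gclc, Nfe2l2, Gsto1 and Msrb1 on the lower. Sod1, Glrx, Prdx6, Cat and Gclc were separate both before and after that step, and Gstp1 only before it. For Sod1, Ggct and Glrx the step used a listed length in doubt. It raised the log2 fold change of Sod1 from 0.44 to 0.54 and that of Glrx from 0.28 to 0.39.

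**Figure D5:**
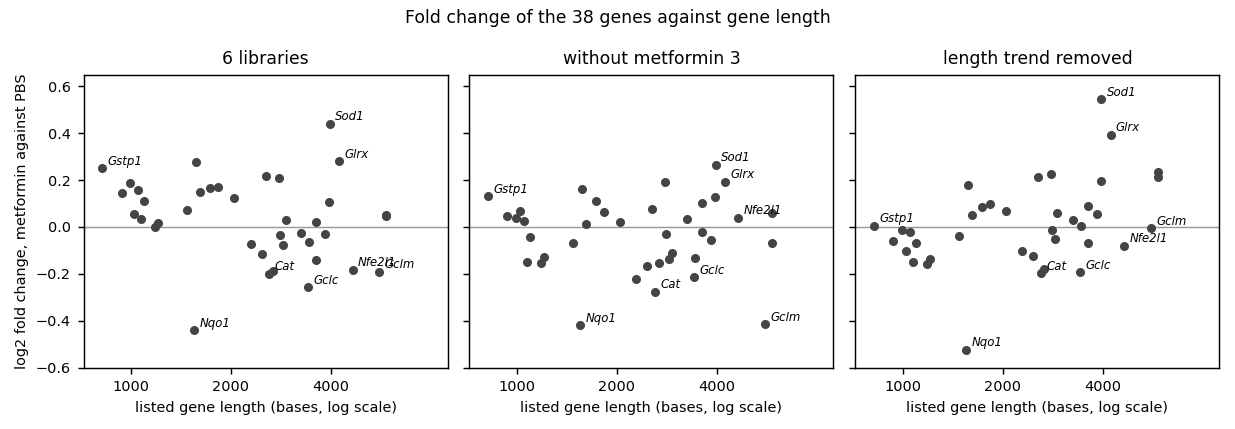
Log2 fold change of the 38 genes, metformin against PBS (y axis), against listed gene length (x axis, log scale), for all 6 libraries, without metformin 3, and with the length trend of each library removed. Sod1 and Glrx stay above 0 and Gclc and Cat below 0 in all 3 panels, while Gstp1 stands at 0.25, 0.13 and 0.0036. The listed lengths of Sod1 and Glrx, which the last panel relies on, are in doubt.

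Other genes of these pathways, from 5 lists apart from the 38, gave 0 calls in edgeR as well. Of 38 further glutathione genes tested, 2 were lower at an unadjusted p under 0.05 and 0 higher (5.26%, against 10.4% of all genes), with a median log2 fold change of 0.03. Both encode export pumps that can carry glutathione conjugates: Abcc4 averaged 20.3 CPM with metformin and 29.3 CPM with PBS (log2 fold change -0.53, SE 0.14; edgeR adjusted p = 0.308), and Abcc1 37.0 CPM with metformin and 47.2 CPM with PBS (-0.35, SE 0.13). DESeq2 called Abcc4 (adjusted p = 0.0478), the only gene of the 5 lists that it called, and its groups did not overlap. Gstp2 averaged 7.44 CPM with metformin and 4.96 CPM with PBS, with the same doubt about shared reads as Gstp1.

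Of 32 other thiol and superoxide genes, 4 were higher and 2 lower at an unadjusted p under 0.05 (18.8%, against 10.4% of all genes), with a median of 0.05. Pdia3 and Pdia6, disulfide isomerases of the endoplasmic reticulum, averaged 1157 and 412.8 CPM with metformin and 961.7 and 341.1 CPM with PBS, log2 fold changes of 0.27 (SE 0.10) and 0.28 (SE 0.10) with edgeR adjusted p of 0.435 and 0.430. Romo1, a mitochondrial protein linked to superoxide formation, averaged 33.0 CPM with metformin and 23.5 CPM with PBS (0.49, SE 0.15; edgeR adjusted p = 0.376), and its log2 fold change was 0.13 with the length trend removed.

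Of 34 NRF2 and KEAP1 partners and further targets, 2 were higher and 2 lower at that p (11.8%, against 10.4% of all genes). Their median log2 fold change was -0.08. Idh2 and Tkt, a mitochondrial source of NADPH and an enzyme of the pentose phosphate pathway, averaged 21.4 and 153.6 CPM with metformin and 29.2 and 187.1 CPM with PBS, log2 fold changes of -0.45 (SE 0.13) and -0.28 (SE 0.11). Osgin1, an oxidative stress growth inhibitor, averaged 67.2 CPM with metformin and 52.6 CPM with PBS (0.35, SE 0.11; edgeR adjusted p = 0.370).

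Of 11 tested sources of oxidants, 1 was at that p (9.09%, against 10.4% of all genes), Mpo, the myeloperoxidase of myeloid cells. It had 12.3, 7.30 and 8.76 CPM in metformin libraries 1, 2 and 3, against 130, 12.2 and 11.2 CPM in PBS libraries 1, 2 and 3. PBS 1 alone was high, and the log2 fold change of -2.44 was -0.31 without it. The 8 neutrophil markers other than Mpo summed to 34.8, 24.7 and 5.61 CPM in metformin libraries 1, 2 and 3 and to 32.1, 15.5 and 11.4 CPM in PBS libraries 1, 2 and 3, so PBS 1 was not the highest library without Mpo. Counting Mpo there were 9 neutrophil markers, of which 2, Ly6g and Camp, averaged under 1 CPM. Csf3r and S100a9 had the highest means after Mpo. The part of neutrophils in the Mpo values was not tested. Xdh, which encodes xanthine oxidoreductase, had 330, 339 and 177 CPM in metformin libraries 1, 2 and 3 and 405, 395 and 388 CPM in PBS libraries 1, 2 and 3 (-0.49, SE 0.22; edgeR adjusted p = 0.489), and its log2 fold change was -0.25 without metformin 3. Ncf1, a cytosolic subunit of the phagocyte NADPH oxidase, averaged 63.4 CPM with metformin and 53.6 CPM with PBS.

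Gpx1, Gpx4, Txnrd1, Txnrd2 and Msrb1 contain selenocysteine. Of 20 other genes of selenoproteins and their synthesis, 1 was at an unadjusted p under 0.05 (5.0%, against 10.4% of all genes). The median log2 fold change of the 20 was -0.02. Selenok, a selenoprotein of the endoplasmic reticulum, averaged 144.7 CPM with metformin and 114.4 CPM with PBS (log2 fold change 0.34, SE 0.13; edgeR adjusted p = 0.449). Selenop, the plasma selenium carrier, averaged 132.1 CPM with metformin and 155.0 CPM with PBS (-0.23, SE 0.12), and Selenow, a small cytosolic selenoprotein, 126.9 CPM with metformin and 111.3 CPM with PBS (0.19, SE 0.10), which was -0.09 with the length trend removed.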

How the data were processed

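The authors deposited one table that holds, for every gene and library, an estimated count and a TPM value, per the file headers. DRAGEN, GRCm39 and mm10 are named in the submitters' processing notes without a version or a role, and strand, filters and the handling of shared reads are not stated there. Of the 38 members 1 has the same position in GENCODE M21 (GRCm38), so positions are printed as the table holds them. The deposited estimated counts were rounded and tested with edgeR 4.0.16 (quasi-likelihood, TMM, filterByExpr, no covariate) in R 4.3.3; all 38 members passed the filter, which left 15527 genes. CPM uses TMM-scaled library sizes. The deposited TPM values were tested with limma 3.58.1 on log2(TPM + 1), where low genes have understated folds. SE is the log2 fold change divided by the root of F. Adjustment is over all genes tested, at a threshold of 0.05.

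Other settings were DESeq2 1.42.0, limma-voom, DESeq2 size factors, library size only, no filter, removal of each library's trend on listed gene length (lowess, span 0.3), TPM settings, a replicate block and each library left out. Values in every library are given for members with separate groups or an unadjusted p under 0.05, the 5 highest in TPM and the NRF2 axis with its targets; in the other lists up to 3 genes are named, those with the smallest p at 5 CPM or more. Members and lists were chosen with earlier results of these data known. The edgeR step was tested on simulated data. No libraries of a group agreed within counting error (chi-square divided by degrees of freedom, 14.8 to 63.9). Of the value columns, 0 lacked a sample.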

Additional observations from a re-analysis of the deposited data

How the results depend on the processing

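None of the 38 members was called by edgeR, DESeq2, limma-voom or limma on TPM under any of the 16 other settings. Over all genes, DESeq2 called 299 genes, the replicate block 3, and 1 each was called with no filter, with the length trend removed and without metformin 3 (0 to 1 with 1 library left out). Members at an unadjusted p under 0.05 numbered 1 with the replicate block and 0 (without PBS 3) to 5 (without metformin 3) with 1 library left out. Members with separate groups numbered 7 to 14 of 38 with 1 library left out, where all genes gave 26.8% to 32.7%. Leaving a library out can only keep or raise that count. The median log2 fold change of all 38 members then lay between -0.0044 and 0.10. On filtered TPM the median of the members was -0.059, over 37 members, against -0.091 over 14087 genes. With no filter, which added Nqo1 among the members, it was -0.095, against -0.0275 over 26848 genes. The all-gene medians thus rest on different gene sets. The labels state no pairing of same-numbered libraries. Same-numbered deviations correlated at 0.171, 0.0757 and 0.172, and 5 of 6 libraries correlated best with their own number. Whether same-numbered libraries share a batch was not tested.

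Of the 606 values of members under other settings, 522 kept the direction and 84 reversed, in 22 members. The other 16, among them Sod1, Glrx, Gstp1, Prdx6, Cat, Gclc, Gsr and Nfe2l2, did not reverse under any setting run. Of these, Sod1, Glrx, Gstp1, Prdx6, Cat and Gclc had separate groups in CPM, so leaving out 1 library could hardly turn their sign. For each reversal the cause was not tested. On filtered TPM the median over all genes was itself -0.091 with a pseudocount of 1 and -0.1005 with 0.1. With the length trend removed the log2 fold changes that reversed were Gpx1 at -0.148, Gpx4 at -0.0113, Gss at 0.0282, Txn1 at -0.0224, Prdx3 at -0.0371, Prdx4 at -0.104, Nqo2 at 0.0544, Glrx3 at 0.00305, Gsto1 at -0.157, Mgst3 at -0.0669, Msrb1 at -0.138, Park7 at -0.0622 and Selenow at -0.0857. On TPM with a pseudocount of 1 (with or without the filter) and of 0.1, in that order, they were Gpx1 at -0.145 and -0.145, Ggct at -0.0485 and -0.0495, Txn2 at -0.0314 and -0.0315, Prdx2 at -0.0034 and -0.00344, Prdx3 at -0.059 and -0.0597, Prdx4 at -0.0573 and -0.0592, Keap1 at -0.131 and -0.133, Glrx5 at -0.1475 and -0.15, Gsto1 at -0.147 and -0.15, Mgst2 at -0.138 and -0.14, Mgst3 at -0.037 and -0.0414, Msrb1 at -0.145 and -0.153, Park7 at -0.0296 and -0.0297 and Selenow at -0.00269 and -0.0027. Gsto1 was also negative by DESeq2 (-0.0045), limma-voom (-0.0144), DESeq2 size factors (-0.00447), no filter (-0.0153) and the replicate block (-0.0128), and Msrb1 by limma-voom (-0.000817) and no filter (-0.00235). With 1 library left out, the values of 15 members crossed 0, with ranges of -0.0686 to 0.142 for Sod2, -0.149 to 0.127 for Gpx1, -0.0791 to 0.035 for Gss, -0.0708 to 0.156 for Prdx3, -0.101 to 0.337 for Prdx4, -0.0723 to 0.016 for Nqo2, -0.108 to 0.0379 for Srxn1, -0.357 to 0.0392 for Nfe2l1, -0.0409 to 0.102 for Keap1, -0.089 to 0.169 for Bach1, -0.132 to 0.00592 for Glrx3, -0.113 to 0.113 for Glrx5, -0.153 to 0.113 for Gsto1, -0.0448 to 0.222 for Mgst3 and -0.13 to 0.0936 for Msrb1. Depth limits Nqo1 most among the members, at 8 to 33 estimated reads per library.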
